A study of Mus musculus with 7 samples.

Results

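The horizontal cell identity genes examined here are *Lhx1*, *Onecut1*, *Onecut2*, *Prox1* and *Calb1*. They were taken by symbol from the count table of the retina RNA-seq, through a GRCm38 gene annotation. All 5 of the 5 symbols were found among the 52550 genes of the table, and all 5 were among the 20128 genes with enough counts to be tested. The question was whether RNAs that mark horizontal cells differ between WT and SCA7 retina, beside the photoreceptor genes for which this mouse is known.

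Horizontal cells are interneurons of the outer retina that receive input from photoreceptors and send inhibitory feedback to them and to bipolar cells. In development, FOXN4 and PTF1A act in progenitors that give rise to horizontal and amacrine cells, PROX1 promotes the horizontal fate, ONECUT1 and ONECUT2 are needed for horizontal cell genesis and maintenance, and LHX1 places the cells in their layer. Calbindin, the calcium-binding protein made from *Calb1*, is the classical marker of mature horizontal cells in the mouse. Of these markers, *Prox1* is also used by bipolar and some amacrine cells, *Calb1* by subsets of amacrine and ganglion cells, and the *Onecut* genes by ganglion cells.

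Total RNA-seq was made from the retinas of 4 WT and 3 SCA7 140Q/140Q homozygous knock-in mice, named SCA7_KI_homo in the labels and SCA7 below. All 7 were C57BL/6J mice of 12.5 weeks, with 2 retinas per mouse in 1 library. The knock-in places an expanded CAG repeat, coding for glutamines, in *Atxn7* under its own promoter, so the mutant protein is made in every cell type that uses the gene and replaces the WT protein. Each library is a separate animal, and males and females were not told apart in the labels.

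Total counts per library were between 56497675 and 96635832, and 1 count was worth between 0.0103 and 0.0177 CPM (counts relative to the size of the library) before scaling. Levels are given below as CPM after TMM scaling, which sets libraries on a common scale from the bulk of genes. *Atxn7*, which is lengthened in frame rather than removed, was at 39.2 CPM in WT retina (SD 4.26, n = 4) and at 37.6 CPM in SCA7 retina (SD 2.98, n = 3) (log2 fold change −0.06, SE 0.088, adjusted p = 0.64), so its level does not check the labels. *Xist*, an RNA made in female cells, was low in every library, at 0.061 to 0.30 CPM, and sex was not tested further. All 10 rod and all 10 cone markers had counts in every library, the lowest being 33 counts. Markers of neighbouring tissue were present too. The 10 lens genes summed to 62.9 to 792 CPM in WT and 46.3 to 1296 CPM in SCA7 libraries, and the 10 genes of the retinal pigment epithelium to 142 to 274 CPM in WT and 40.2 to 79.3 CPM in SCA7 libraries.

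In SCA7 retina *Prox1* fell by 25.8% and *Calb1* fell by 26.2%, while *Lhx1*, *Onecut1* and *Onecut2* did not pass the test. Thus 2 of the 5 genes were lower at an adjusted p under 0.05 in edgeR, against 14.2% of all genes tested, and 0 were higher, against 14.2%. At an unadjusted p under 0.05 in edgeR, and at an adjusted p under 0.05 in DESeq2 and limma-voom, 0 of the 5 were higher too. With total counts in place of TMM factors, which moved the median of all genes from −0.02 to 0.17, 7.43% of all genes were lower and 36.3% higher, and 2 of the 5 genes were lower and 1 higher. None of the 5 reached the fold change limits of 0.7 for downregulation (7.91% of all genes) or 1.3 for upregulation (7.47% of all genes). Every SCA7 library was below every WT library for 2 of the 5 genes, where 18.3% of all genes showed this, and above for 0 of the 5, where 19.3% did. Their log2 fold changes had a median of −0.31, beside −0.02 for all genes tested, and of −0.13 with total counts and −0.20 with the replicate number as a block. In bulk retina, fewer cells of a type and less RNA per cell cannot be told apart.

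**Figure D1:**
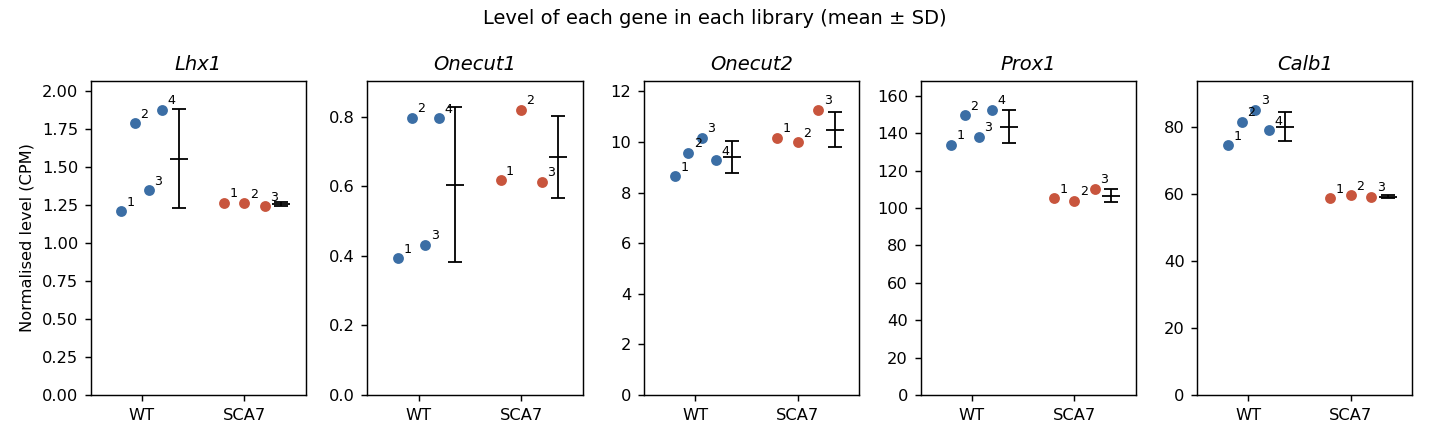
Level of the 5 horizontal cell identity genes in CPM (linear axes from 0) in 4 WT and 3 SCA7 libraries, each point a library with its replicate number, and bars the mean ± SD. The SCA7 points of *Prox1* (103.9 to 110.4 CPM) and *Calb1* (58.8 to 59.7 CPM) lie below all WT points, and those of the other 3 genes overlap the WT points.

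*Lhx1* (ENSMUSG00000018698) lies on the minus strand at chr11:84518284-84525535 of GRCm38 and codes for a LIM homeodomain protein, a DNA-binding protein whose LIM domains bind partner proteins. It is among the most horizontal-cell-restricted of the 5 genes in the adult retina. A non-coding gene, *Lhx1os*, starts 125 bp away on the other strand. The 250 bases before the RefSeq start of *Lhx1* (GRCm38.p6, chr11:84525535-84525784, minus strand) are shown because the measured pair shares this stretch, and capitals mark the 124 bases between both annotated starts.

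Lhx1 start region: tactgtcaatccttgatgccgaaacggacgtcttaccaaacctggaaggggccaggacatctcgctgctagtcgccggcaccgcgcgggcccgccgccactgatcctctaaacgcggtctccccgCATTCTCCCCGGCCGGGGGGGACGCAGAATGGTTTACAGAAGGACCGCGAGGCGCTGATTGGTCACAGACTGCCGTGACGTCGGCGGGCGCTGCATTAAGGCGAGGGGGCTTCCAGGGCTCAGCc

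*Lhx1* was a low-abundance gene, at 1.21, 1.79, 1.35 and 1.88 CPM in WT replicates 1 to 4, which were 71, 128, 72 and 123 counts. In SCA7 replicates 1 to 3 it was at 1.27, 1.27 and 1.24 CPM, from 78, 108 and 128 counts. The SCA7 libraries were close together, just above the lowest WT library, and the WT libraries fell into a lower pair (replicates 1 and 3) and a higher pair (replicates 2 and 4). The log2 fold change was −0.31 (SE 0.17, 95% interval −0.69 to 0.07, adjusted p = 0.20 in edgeR), so that a decrease of the size seen for *Prox1* and no change both lie within the interval. *Lhx1os*, on the other side of the shared stretch, was at 2.28 CPM in WT retina (SD 0.352, n = 4) and at 2.33 CPM in SCA7 retina (SD 0.238, n = 3) (log2 fold change 0.04, SE 0.15, adjusted p = 0.86), a sign that was not stable between settings.

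*Onecut1* (ENSMUSG00000043013) lies on the plus strand at chr9:74861921-74891781 and codes for a transcription factor with a cut domain and a homeodomain. It was the lowest of the 5 genes. WT replicates 1 to 4 held 23, 57, 23 and 52 counts, or 0.393, 0.797, 0.431 and 0.795 CPM, and SCA7 replicates 1 to 3 held 38, 70 and 63 counts, or 0.617, 0.820 and 0.612 CPM. The 3 SCA7 libraries were above the same lower WT pair (replicates 1 and 3) as for *Lhx1*, and SCA7 replicate 2 was the highest of all 7. WT replicates 1 and 3 were also the WT libraries with the fewest total counts, 61039804 and 59902546, and the part of depth in this pattern was not tested. The log2 fold change was 0.16 (SE 0.27, 95% interval −0.43 to 0.75, adjusted p = 0.70), and it was 0.0015 to 0.32 when single libraries were left out. The interval reaches from a decrease about as large as that of *Prox1* to a larger increase, so neither was detectable as present or absent at these counts.

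The *Onecut1* count has a further limit, which comes from the annotation. The lincRNA gene *Gm20649* (ENSMUSG00000093662, chr9:74848463-74891476, plus strand) covers 2171 of the 4113 exon bases of *Onecut1*, or 52.8%, and 290 of its 1395 coding bases, or 20.8%. *Gm20649* had 0 counts in all 7 libraries. HTSeq assigns no read that lies in more than one gene, so reads in the shared exon may be missing from the *Onecut1* count in WT and SCA7 libraries alike. The shared coding stretch holds the end of the *Onecut1* reading frame with its homeodomain, and is shown (GRCm38, chr9:74889306-74889595, plus strand) because it is the coding sequence in which counts may be missing.

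Onecut1 coding bases shared with Gm20649: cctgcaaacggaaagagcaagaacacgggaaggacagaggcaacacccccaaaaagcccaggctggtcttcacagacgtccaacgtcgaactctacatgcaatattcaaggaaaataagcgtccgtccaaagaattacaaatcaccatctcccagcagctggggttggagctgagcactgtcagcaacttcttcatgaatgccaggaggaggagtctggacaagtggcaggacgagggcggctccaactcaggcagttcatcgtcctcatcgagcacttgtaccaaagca

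Of the 4062 words of 50 bases in *Onecut1* transcripts, 2124 also occur in another gene on the same strand, 1 of them in the paralog *Onecut3* and the others in *Gm20649*, and none occurs in another of the 5 genes. The word shared with *Onecut3*, which lies in the coding sequence of the cut domain, is shown because a read of that length could not be told apart between the paralogs there.

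Onecut1 and Onecut3 shared word: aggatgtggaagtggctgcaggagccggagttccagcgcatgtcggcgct

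**Figure D2:**
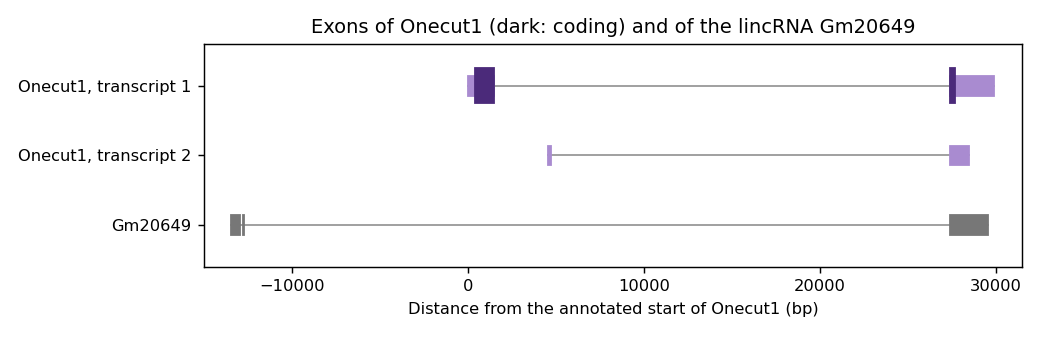
Exons of both *Onecut1* transcripts (purple, coding part dark and taller) and of *Gm20649* (grey), to scale, by distance in bp from the annotated start of *Onecut1*. The last *Onecut1* exon starts at 27385 bp and is covered by *Gm20649* for 2171 bases, while the first 1481-base exon with 1105 coding bases is covered by no other gene.

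Another non-coding gene near *Onecut1*, *Gm28182*, starts 6536 bp from it on the other strand and had too few counts to be tested (0 to 5 in WT and 0 to 2 in SCA7 libraries).

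*Onecut2* (ENSMUSG00000045991), on the plus strand at chr18:64340020-64400987, codes for the paralog that acts together with ONECUT1 in horizontal cells. *St8sia3os*, which starts 6314 bp away on the other strand, had 0 to 4 counts and was not tested. *Onecut2* was at 8.64, 9.57, 10.2 and 9.28 CPM in WT replicates 1 to 4 and at 10.2, 9.99 and 11.3 CPM in SCA7 replicates 1 to 3. SCA7 replicates 1 and 3 were above all WT libraries, and SCA7 replicate 2 was below WT replicate 3. The log2 fold change was 0.16 (SE 0.084, 95% interval −0.03 to 0.34, adjusted p = 0.19), an interval that holds no decrease like that of *Prox1* or *Calb1*. Without single libraries it was 0.099 (without SCA7 replicate 3) to 0.19. The call depended on the scaling, since with total counts the log2 fold change was 0.35 and passed the test (adjusted p = 0.0042 in edgeR).

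*Prox1* (ENSMUSG00000010175), on the minus strand at chr1:190118035-190170714, codes for a homeodomain transcription factor. It was at 134.0, 149.6, 138.2 and 152.7 CPM in WT replicates 1 to 4, from 7847, 10702, 7372 and 9990 counts. In SCA7 replicates 1 to 3 it was at 105.4, 103.9 and 110.4 CPM, from 6490, 8869 and 11361 counts. All SCA7 libraries were below all WT libraries, with a gap between the groups that was wider than the range of either. The log2 fold change was −0.43 (SE 0.065, 95% interval −0.57 to −0.29, adjusted p = 4.2e-04), and it was −0.46 to −0.40 with single libraries left out. It passed the test with total counts as well, at −0.24 (adjusted p = 0.020).

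*Prox1* is paired with an antisense gene, *Prox1os*, which starts 418 bp inside it on the other strand and shares 133 of its 8390 exon bases, or 1.59%. *Prox1os* was at 3.91 CPM in WT retina (SD 0.731, n = 4) and at 3.02 CPM in SCA7 retina (SD 0.0137, n = 3), with every SCA7 library below every WT library, and did not pass the test (log2 fold change −0.37, SE 0.14, adjusted p = 0.074). It passed at −0.45 without WT replicate 4 (adjusted p = 0.025), at −0.45 with the replicate number as a block (adjusted p = 0.0077) and at −0.41 with *Xist* as a covariate (adjusted p = 0.012). Only WT has a replicate 4, so the block also takes that library out of the comparison. These settings are therefore not independent of each other, and *Xist* was low in every library. A second antisense gene, *Gm28172*, had a log2 fold change of −0.25 (SE 0.23, adjusted p = 0.45). The libraries keep strand information, but the strand option used in counting is not given in the sources used here, so reads of *Prox1* and *Prox1os* in their shared bases cannot be told apart. The 250 bases before the RefSeq start of *Prox1* (GRCm38.p6, chr1:190170828-190171077, minus strand), which lie in an intron of *Prox1os*, are shown as the *Prox1* promoter stretch that the *Prox1os* unit crosses.

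Prox1 start region: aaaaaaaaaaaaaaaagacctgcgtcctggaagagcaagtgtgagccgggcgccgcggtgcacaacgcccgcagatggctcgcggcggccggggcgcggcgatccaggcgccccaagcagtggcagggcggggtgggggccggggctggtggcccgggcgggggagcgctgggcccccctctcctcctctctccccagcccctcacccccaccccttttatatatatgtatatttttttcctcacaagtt

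The RefSeq windows held 3 of the 5 genes, *Lhx1*, *Onecut1* and *Prox1*, and had no entry for *Onecut2* and *Calb1*. Searched on both strands, their upstream windows held none of ATCGAT, the core bound by ONECUT proteins, TAATCC, the core bound by CRX, TAATTA, a core bound by LIM homeodomain proteins, or CAGCTG, an E-box of the kind bound by PTF1A. Of the 32851 windows of all genes, 0.728%, 6.25%, 4.84% and 13.0% held these letters.

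*Calb1* (ENSMUSG00000028222), on the plus strand at chr4:15881264-15908064, codes for calbindin and is the only one of the 5 that is not a transcription factor gene. It was at 74.7, 81.7, 85.3 and 79.2 CPM in WT replicates 1 to 4 and at 58.8, 59.7 and 59.3 CPM in SCA7 replicates 1 to 3. The SCA7 libraries lay within 1 CPM of each other and below every WT library. The log2 fold change was −0.44 (SE 0.059, 95% interval −0.57 to −0.31, adjusted p = 1.9e-04), −0.47 to −0.41 with single libraries left out, and −0.25 with total counts (adjusted p = 0.0043).

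The 5 genes differed widely in level per length. As reads per kilobase (RPK, counts divided by DESeq2 size factors and by the gene's median transcript length), WT retina held 7530 RPK of *Calb1*, 3020 of *Prox1*, 109 of *Lhx1*, 40.0 of *Onecut2* and 16.1 of *Onecut1*. Each gene was above the next in every WT and every SCA7 library. Among 15422 protein-coding genes these levels were at percentiles 91.0, 77.1, 22.4, 13.9 and 7.55, so the pair that fell was also the abundant pair. The order depended on the length used. With the union of exons, *Prox1* (1182 RPK) and *Calb1* (1144 RPK) overlapped in WT libraries, and *Onecut2* (40.0 RPK) was above *Lhx1* (26.4 RPK). Over the 1942 exon bases that *Onecut1* does not share with *Gm20649*, a length chosen after seeing the data, *Onecut1* was at 21.5 RPK ± 7.95 (SD, n = 4) in WT and 24.5 RPK ± 4.10 (SD, n = 3) in SCA7 retina, beside 26.4 and 21.5 RPK of *Lhx1* over its union of exons.

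Ratios between the genes within a library do not depend on how libraries are scaled, and were computed for all 10 pairs after the single-gene values had been seen. The log2 ratio of *Prox1* to *Calb1* was 0.84 ± 0.11 (SD, n = 4) in WT and 0.85 ± 0.049 (SD, n = 3) in SCA7 retina, a difference of 0.0070 with overlapping groups. The log2 ratio of *Onecut2* to *Calb1* ranged from −3.11 to −3.07 in WT and from −2.58 to −2.39 in SCA7 libraries, a difference of 0.59. That of *Onecut2* to *Prox1* ranged from −4.04 to −3.77 in WT and from −3.38 to −3.29 in SCA7 libraries, a difference of 0.58. In both, every SCA7 library was above every WT library, so *Onecut2* RNA made up a larger part relative to *Prox1* and *Calb1* RNA in each SCA7 mouse.

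The ratios of *Onecut1* to *Prox1* and to *Calb1* also differed without overlap, by 0.67 and 0.68, and those of *Lhx1* to *Onecut1* and to *Onecut2* by −0.53 and −0.44. *Lhx1* to *Prox1* and to *Calb1* (differences of 0.15 and 0.15) and *Onecut1* to *Onecut2* (0.087) overlapped. In exact two-sided permutation tests over the 35 assignments of the 7 libraries, *Onecut2* to *Prox1* and *Onecut2* to *Calb1* reached p = 0.0286, the smallest this design allows. The adjusted p over the 10 pairs was 0.143 for both in these exact tests, and no pair passed the correction, which at this floor could be passed only if 6 or more pairs reached it. Without single libraries the difference of *Onecut2* to *Calb1* was 0.54 without SCA7 replicate 3 and 0.63 without SCA7 replicate 2.

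**Figure D3:**
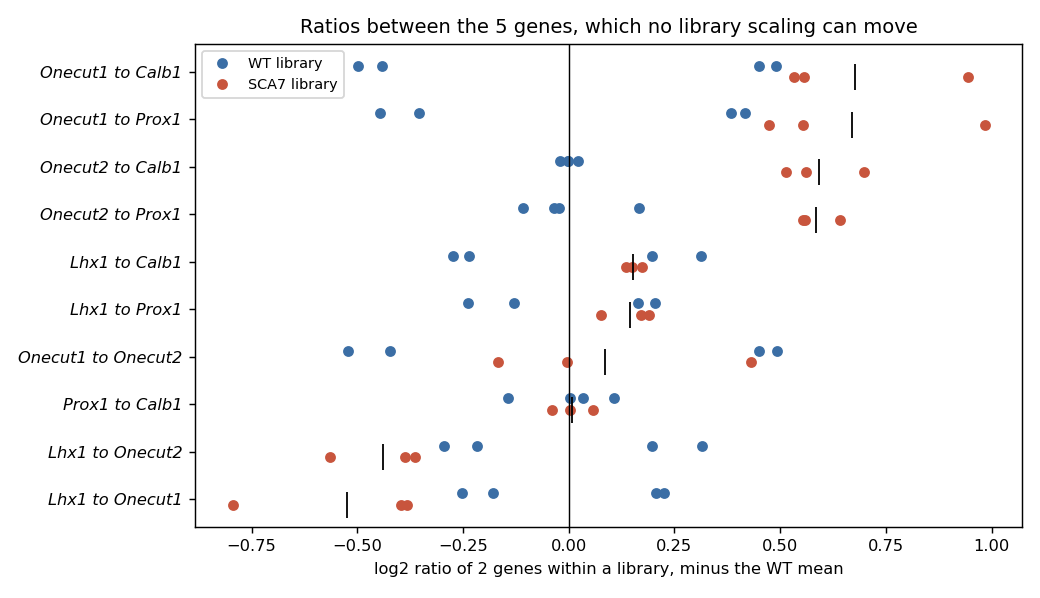
log2 ratio of each pair of the 5 genes in each library, minus the mean of the 4 WT libraries (blue WT, red SCA7, black ticks the SCA7 means). The red points of *Onecut2* to *Calb1* and to *Prox1*, with means of 0.59 and 0.58, lie to the right of all blue points, and those of *Prox1* to *Calb1*, with a mean of 0.0070, lie among them.

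Across the 7 libraries, log2 levels of *Prox1* and *Calb1* had a Pearson r of 0.94, *Lhx1* and *Prox1* of 0.76, *Lhx1* and *Onecut1* of 0.57, and *Onecut2* and *Prox1* of −0.57. These values are descriptive, since the 7 points hold both genotypes and share library scaling and depth. Among 14719 tested genes averaging 1 CPM or more, the genes most like *Prox1* over the 7 libraries were *Nptx1* (r = 0.998), *Tpmt* (0.992) and *Ngfr* (0.992), and those most like *Calb1* were *Camkv* (0.996), *Lcmt2* (0.994) and *Filip1l* (0.993). For *Lhx1* they were *Gas8* (0.975), *Ptcd1* (0.972) and *Gapvd1* (0.972), for *Onecut1* *Trim26* (0.974), *Aatf* (0.973) and *Zbtb14* (0.970), and for *Onecut2* *Ppp2r1a* (0.983), *Pirt* (0.982) and *Cdk17* (0.981). None of the other members was among these, where *Onecut1*, below 1 CPM, was no candidate.

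A list of 10 other genes of mature horizontal cells gave 0 lower and 1 higher gene, where 14.2% of all genes were lower and 14.2% higher. Their median log2 fold change was −0.11. At an unadjusted p under 0.05 in edgeR, 2 of the 10 were lower and 1 higher. Every SCA7 library was below every WT library for 3 of the 10 (18.3% of all genes) and above for 1 (19.3%). *Megf10*, a receptor that spaces horizontal cells in their mosaic, was the gene called higher, at 25.1 CPM in WT retina (SD 2.56, n = 4) and 33.6 CPM in SCA7 retina (SD 2.03, n = 3) (log2 fold change 0.42, SE 0.082, adjusted p = 0.0025). The cell types that its RNA came from cannot be told apart in bulk retina. *Gja10*, the connexin of horizontal cell gap junctions, was at 3.04 to 3.61 CPM in WT and 2.66 to 2.71 CPM in SCA7 libraries, without overlap, and did not pass (log2 fold change −0.27, SE 0.11, adjusted p = 0.096). *Sept4*, a septin gene, was at −0.10 (SE 0.066, adjusted p = 0.28) and *Slc12a7*, a potassium-chloride cotransporter gene, at 0.11 (SE 0.094, adjusted p = 0.42). *Tfap2b*, a transcription factor gene of horizontal and amacrine cells, was at −0.18 (SE 0.086, adjusted p = 0.14), and passed without WT replicate 3, at −0.24 (adjusted p = 0.023). Without that library 2 of the 10 genes were lower, beside 16.7% of all genes, and with total counts 3 were higher, beside 36.3% of all genes, *Slc12a7* among them (0.30, adjusted p = 0.023). The 10 genes summed to 389.9 to 432 CPM in WT and 388.8 to 399.8 CPM in SCA7 libraries, which overlap, while the 5 identity genes summed to 219 to 244 CPM and 176 to 183 CPM, which do not, nearly all of it *Prox1* and *Calb1*. The sum of the 10 is likewise set by its abundant genes, with *Sept4* at 138 CPM and *Tfap2b* at 55.3 CPM in WT retina beside 3.24 CPM of *Gja10*. Which cell types this RNA came from was not tested.

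**Figure D4:**
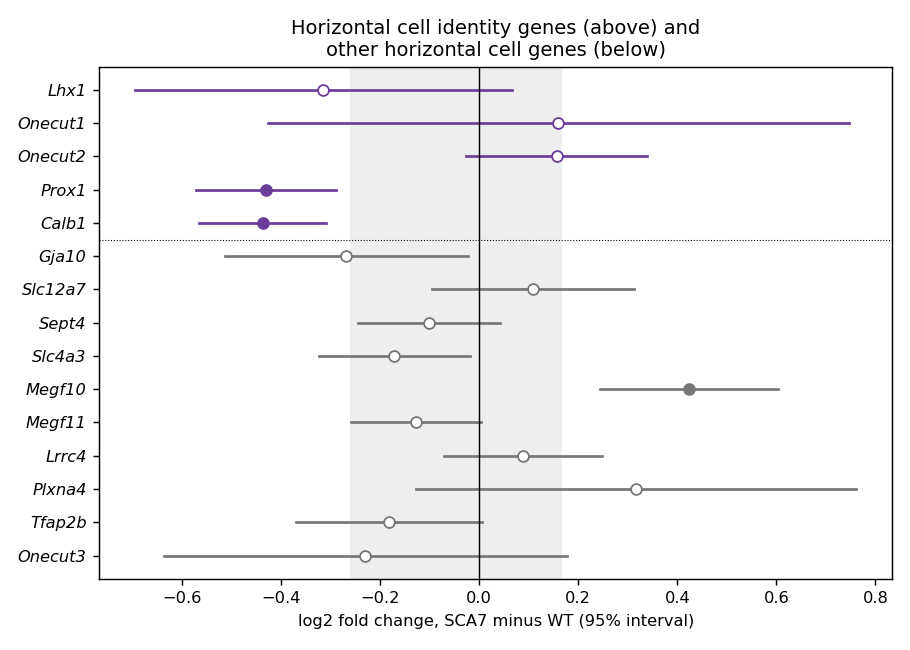
log2 fold change (SCA7 minus WT) with its 95% interval for the 5 horizontal cell identity genes (purple) and 10 other horizontal cell genes (grey), filled where the adjusted p was under 0.05, with the middle 50% of all 20128 genes shaded. *Prox1* and *Calb1*, at −0.43 and −0.44, lie left of the shaded range, and *Megf10*, at 0.42, right of it.

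Among 6 genes that specify horizontal cells in development, 5 were tested. *Ptf1a*, the bHLH gene that directs progenitors to horizontal and amacrine fates, had 1 to 3 counts in WT libraries and 14 to 25 in SCA7 libraries. It passed the filter through the SCA7 libraries alone, so that it had to differ to be tested, and its values are a description without a test. The ratio of summed counts, 56 in SCA7 against 8 in WT libraries, was 6.97 after scaling. It is given without an interval, since the sums pool the mice of a group. At 0.228 CPM ± 0.0576 (SD, n = 3) in SCA7 retina it was below *Onecut1*, the lowest of the 5 identity genes. *Foxn4* was not tested, with 0 to 2 counts in WT and 3 to 7 in SCA7 libraries. Of the other 4 genes tested, 1 was lower and 0 higher. *Pax6*, a gene of horizontal, amacrine and ganglion cells, fell (log2 fold change −0.25, SE 0.071, adjusted p = 0.020), a call lost without SCA7 replicate 1 (adjusted p = 0.090) or SCA7 replicate 2 (adjusted p = 0.11). Without WT replicate 3, where 16.7% of all genes were lower, 3 were lower. With the replicate number as a block, where 17.2% of all genes were higher, 1 of the 4 was higher.

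Horizontal cells make GABA and neurofilaments, as other inner retinal neurons do. Of the 3 GABA genes, *Gad1*, for a glutamate decarboxylase, fell (log2 fold change −0.37, SE 0.079, adjusted p = 0.0044), while *Gad2* was at 0.07 (SE 0.077, adjusted p = 0.51) and the vesicular transporter gene *Slc32a1* at −0.15 (SE 0.068, adjusted p = 0.12). *Slc32a1* passed without WT replicate 1, at −0.20 (adjusted p = 0.042), and with total counts *Gad1* did not (−0.18, adjusted p = 0.080) while *Gad2* was higher (0.26, adjusted p = 0.021). Of the 3 neurofilament genes, *Nefl* fell (log2 fold change −0.31, SE 0.079, adjusted p = 0.013), and *Nefm* (−0.11, adjusted p = 0.30) and *Nefh* (0.10, adjusted p = 0.42) did not pass. With total counts *Nefh* was higher (0.29, adjusted p = 0.016). *Nefl* lost its call without SCA7 replicate 1 (adjusted p = 0.066) or SCA7 replicate 2 (adjusted p = 0.058).

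Paralogs of the 5 genes were read beside them. *Calb2*, for calretinin, which marks amacrine and ganglion cells, fell (log2 fold change −0.39, SE 0.081, adjusted p = 0.0038), near the value of *Calb1*. *Prox2* was at −0.29 (SE 0.12, adjusted p = 0.11, and 0.035 without SCA7 replicate 2) and *Onecut3*, also a horizontal cell gene, at −0.23 (SE 0.19, adjusted p = 0.39), and *Lhx5*, the closest relative of *Lhx1*, had too few counts to be tested. Of 11 other LIM homeodomain genes 6 were tested, of which *Isl1* was lower (−0.20, SE 0.060, adjusted p = 0.025) and *Lhx2* higher (0.22, SE 0.068, adjusted p = 0.030). With *Xist* as a covariate 2 of the 6 were lower (17.1% of all genes). With total counts 0 were lower and 2 higher, beside 7.43% and 36.3% of all genes. Of 9 genes for cofactors that bind LIM proteins, *Ssbp4* (−0.92, SE 0.086, adjusted p = 1.1e-05) and *Ldb2* (−0.24, SE 0.068, adjusted p = 0.022) were lower and none was higher, where 14.2% of all genes were lower and 14.2% higher. Without WT replicate 4 or with the replicate block 1 was higher (15.4% and 17.2% of all genes), and with total counts 3 were (36.3%). *Ldb1*, the main partner of LIM homeodomain proteins, was at 0.01 (SE 0.056, adjusted p = 0.96). The calls of *Isl1*, *Lhx2* and *Ldb2* were lost when some single libraries were left out. *Isl1* lost its call without SCA7 replicate 1, 2 or 3 (adjusted p = 0.10, 0.10 and 0.061), *Lhx2* without WT replicate 1 or 2 or SCA7 replicate 1 or 3 (adjusted p = 0.059, 0.090, 0.12 and 0.13), and *Ldb2* without WT replicate 2 or SCA7 replicate 2 or 3 (adjusted p = 0.059, 0.092 and 0.11).

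Marker lists of the cell types that share some of these 5 genes with horizontal cells were read beside them. Over all genes tested, 14.2% were lower and 14.2% higher. Of 10 bipolar cell genes 7 were lower and 0 higher. Without WT replicate 4 or with the replicate block 1 was higher (15.4% and 17.2% of all genes), and with total counts 2 were (36.3%). Their median log2 fold change was −0.42, with summed levels of 969 to 1139 CPM in WT and 859.8 to 906 CPM in SCA7 libraries. *Vsx1*, *Pcp2*, *Cabp5* and *Trpm1* were called with the smallest adjusted p among them, at −0.50, −0.74, −0.60 and −0.40. Of 14 amacrine cell genes 6 were lower and 0 higher. With total counts 3 were lower and 1 higher, beside 7.43% and 36.3% of all genes. Their median was −0.30, with summed levels of 579 to 667 CPM in WT and 483 to 526 CPM in SCA7 libraries. The lower genes included the neuropeptide genes *Tac1* (−0.75) and *Vip* (−1.80), the glycine transporter gene *Slc6a9* (−0.41) and *Gad1*. Of 12 ganglion cell genes, a type that shares *Calb1* and the *Onecut* genes, 1 was lower and 0 higher, with a median of −0.09 and overlapping sums of 487 to 584 CPM in WT and 487 to 542 CPM in SCA7 libraries. *Nrn1* was that gene (−0.28, adjusted p = 0.010, and 0.060 without SCA7 replicate 2), and 3 genes were lower without WT replicate 3 (16.7% of all genes). With total counts 0 were lower and 1 higher, beside 7.43% and 36.3% of all genes. In DESeq2 2 were lower (14.5% of all genes), and with *Xist* as a covariate or protein-coding genes only 3 were (17.1% and 15.8%). None of these markers was at 0, and the part of these cell types in the values of *Prox1*, *Calb1* and the *Onecut* genes was not tested.

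The photoreceptor and glial lists give the scale of change in the same libraries. All 10 rod genes were lower, with a median log2 fold change of −1.20 (*Nrl*, *Gnat1* and *Rom1* at −1.58, −1.76 and −1.45). Of 10 cone genes 9 were lower and 1 higher, with a median of −1.57 (*Gnat2*, *Pde6c* and *Arr3* at −1.82, −1.31 and −3.17, and *Gnb3* at 1.06). Of 10 Müller glia genes 6 were higher (3 without SCA7 replicate 1, where 8.45% of all genes were higher) and 1 lower, with a median of 0.31 (*Crym*, *Vim* and *Aqp4* at 1.22, 0.61 and 0.31, and *Glul* at −0.36, a call lost without SCA7 replicate 2 or 3, both at an adjusted p = 0.057). Of 10 genes of the retinal pigment epithelium 5 were lower (3 without SCA7 replicate 2, where 9.63% of all genes were lower) and 0 higher, with *Lrat*, *Rgr* and *Rdh5* at −3.21, −3.57 and −1.50 and *Rpe65* at −2.29 (adjusted p = 0.064 without SCA7 replicate 2). Of 9 lens genes tested 0 passed in edgeR, at an adjusted or an unadjusted p, or in DESeq2 or limma-voom, and 1 was lower with the replicate block, with a median of 0.79. Lens sums overlapped between the genotypes, and the part of lens RNA in the value of *Prox1*, which the lens also uses, was not tested.

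**Figure D5:**
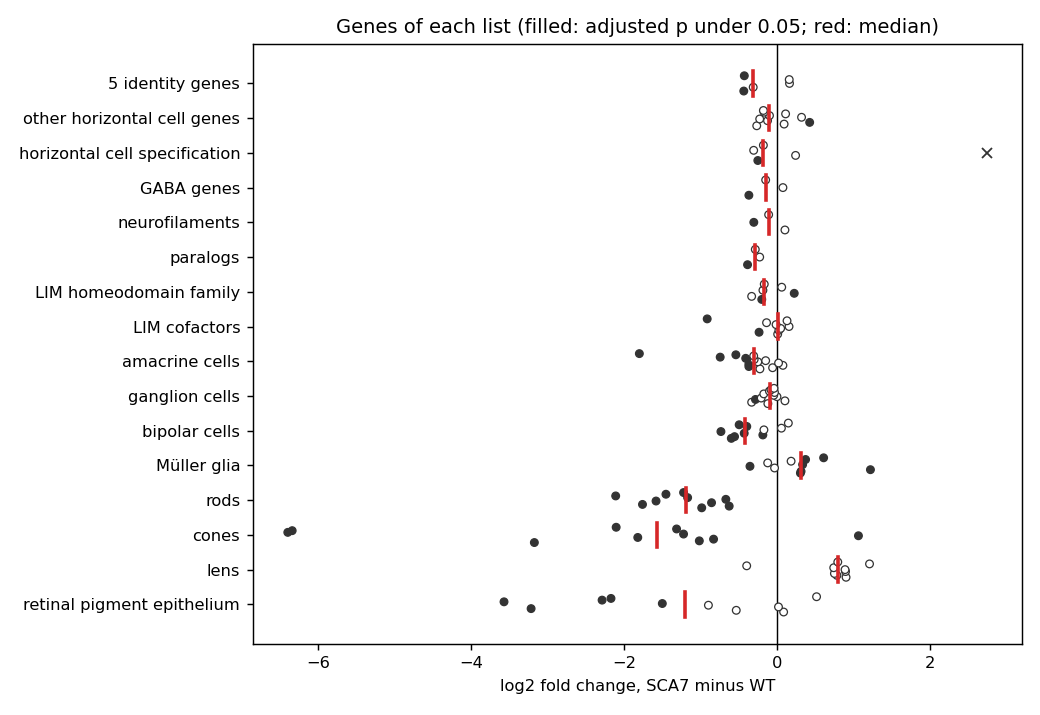
log2 fold change (SCA7 minus WT) of each tested gene of the 5 horizontal cell identity genes and of 15 other lists, filled where the adjusted p was under 0.05, with the list median in red. The 5 identity genes (median −0.31) and the other horizontal cell genes (median −0.11) lie close to 0 beside rods (−1.20) and cones (−1.57), and the cross marks *Ptf1a*, which is given without a test.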

How the data were processed

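The authors made stranded total RNA libraries depleted of ribosomal RNA, mapped single reads to mm10 with TopHat2 2.0.14 and Bowtie2 2.1.0, and counted reads per Ensembl gene with HTSeq 0.6.1. The deposited values are raw counts, and the counting mode and strand option are not given in the sources used here. Symbols, lengths and positions came from a GRCm38 annotation, which covered 52403 of 52550 genes.

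Genes were kept by filterByExpr of edgeR 4.0.16 (R 4.3.3), scaled by TMM and tested with glmQLFit in its robust form and glmQLFTest, the quasi-likelihood test, with Benjamini-Hochberg adjustment over 20128 genes. The test was run on simulated counts first. RPK used DESeq2 1.42.0 size factors. Alternatives also used limma 3.58.1. The 5 genes and all lists were chosen with earlier results of these data known. Named are the 5 genes, *Atxn7*, genes overlapping a member or starting within 10000 bp of its start, the 3 most correlated genes per member, *Gja10*, *Slc12a7*, *Sept4*, *Tfap2b*, *Ptf1a*, every gene of lists of at most 4, and up to 4 called genes per list by adjusted p. *Foxn4* and *Ldb1* were named after their values were seen. The single values of 1 such gene are not reported here.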

Additional observations from a re-analysis of the deposited data

Results flagged for a closer look

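In WT, 4 values stood apart from the other 3 libraries by Dixon's test, which chance alone gives for about 1 in 20 groups. None belongs to the 5 identity genes. In WT replicate 1, *Gad1* was at 234 CPM and *Nefh* at 73.2 CPM, both below the other WT libraries. In WT replicate 3, *Gnat2* was at 241 CPM, above the others, and *Rgr* at 40.0 CPM, below them.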

How the results depend on the processing

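*Prox1* and *Calb1* kept their direction and their call under all 16 other settings, with log2 fold changes of −0.46 to −0.24 and −0.47 to −0.25. *Lhx1* and *Onecut1* kept their sign and did not pass under any of the 16, at −0.42 to −0.13 and 0.0015 to 0.36. With total counts in place of scaling factors, *Onecut2* passed at 0.35, 1 of the 5 genes was higher, the median of the 5 was −0.13, and *Sept4* (0.090), *Tfap2b* (0.0050), *Slc32a1* (0.039), *Nefm* (0.075) and *Atxn7* (0.12) changed sign with none of these passing, and *Gad2* (0.26), *Nefh* (0.29) and *Slc12a7* (0.30) passed as higher. The calls of *Pax6*, *Gad1*, *Nefl*, *Isl1*, *Ldb2*, *Nrn1* and *Glul* were lost, and the median of all genes moved from −0.02 to 0.17. With no filter beyond 1 count, *Isl1* (adjusted p = 0.066 in edgeR) and *Ldb2* (0.057) lost their calls. Leaving out single libraries gave medians of the 5 genes between −0.42 and −0.21. It also gave *Lhx1os* values between −0.034 and 0.13 and *Atxn7* values between −0.13 and 0.0023. With *Xist* as a covariate *Lhx1os* was at −0.0077, but *Xist* was at 0.061 to 0.30 CPM in the 7 libraries.

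Replicate numbers were shared between the genotypes, and same-numbered mice correlated at 0.032, 0.38 and 0.14. The sample titles also hold a further number, close between same-numbered WT and SCA7 libraries and far off for WT replicate 4. What these numbers mark is not stated. The correlations cannot exclude pairs, so the fit with the replicate number as a block is given beside the unpaired fit. Only WT has a replicate 4, so the block also takes that library out of the comparison. With the replicate number as a block, the 5 genes kept their calls, their median was −0.20, *Prox1* was at −0.40, *Calb1* at −0.44, *Lhx1os* at −0.030 and *Prox1os* passed at −0.45 (adjusted p = 0.0077 in edgeR). With the block, or with *Xist* as a covariate, 1 LIM cofactor gene and 1 bipolar cell gene were higher, against 0. Over all genes, 3418 were lower and 3461 higher with the block, against 2853 and 2853. SCA7 replicate 1 correlated best with WT replicate 4. *Onecut1* and *Ptf1a* had at most 70 and 25 counts per library, which limits what their values can show.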
